A study of Mus musculus with 6 samples.

Results

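The BMP, activin and TGF-beta receptors described here are 10 genes, chosen by name out of 23107 genes listed for mouse aortic valve tissue. They are the BMP type I receptors Acvr1, Acvrl1, Bmpr1a and Bmpr1b, the activin and TGF-beta type I receptors Acvr1b and Tgfbr1, and the type II receptors Bmpr2, Acvr2a, Acvr2b and Tgfbr2. All 10 had enough counts to be tested. The aortic valves came from outbred mice aged 4 months, in 3 control and 3 mutant RNA-Seq libraries. The mutants (Acvr1:Nfatc1Cre in the labels) carried a constitutively active Acvr1 transgene (caAcvr1) that is switched on by Cre recombinase, together with the Nfatc1Cre knock-in that supplies the recombinase. The labels call the controls wild type, whereas the study's methods allow controls that lacked the transgene, the Cre or both. According to the study, Nfatc1Cre recombines in the endocardium and its derivatives, in interstitial cells and at the leaflet–wall junction, but not in myocardium or smooth muscle. A dissected valve therefore holds cells with and without the active receptor. Neither the number of mice per library nor their sex is given in the sources used here, so the spread between replicates may be partly technical.

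Ligands of this family bring together type II and type I receptors in one complex at the cell surface. The type II receptor phosphorylates the type I receptor in a short stretch rich in glycine and serine, the GS box, and the type I receptor then phosphorylates Smad proteins. AcvRI, AcvRL1, BmpRIA and BmpRIB act mainly through the BMP Smads (Smad1, Smad5 and Smad9), whereas AcvRIB and TgfbRI act through Smad2 and Smad3. In the heart, these receptors are known for their roles in endocardial cushion formation and valve growth.

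The GS box is shown because the transgene differs from the endogenous gene there, and because the box separates the type I from the type II receptors. In the GENCODE models of GRCm38 (the assembly also called mm10), all 6 type I receptors held a 51-base coding stretch of this kind and the 4 type II receptors did not. Each stretch is given 5′ to 3′ on the coding strand, and the capitals mark its last codon.
Acvr1: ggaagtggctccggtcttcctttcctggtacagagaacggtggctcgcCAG
Acvrl1: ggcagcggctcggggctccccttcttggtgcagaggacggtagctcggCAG
Bmpr1a: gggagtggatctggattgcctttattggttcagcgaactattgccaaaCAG
Bmpr1b: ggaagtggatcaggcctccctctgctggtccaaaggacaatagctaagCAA
Acvr1b: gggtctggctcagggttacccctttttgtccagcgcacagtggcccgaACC
Tgfbr1: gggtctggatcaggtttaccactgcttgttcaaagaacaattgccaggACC
The stretch of Acvr1 lies at chr2:58474195-58474245 on the minus strand, in exon 6 of 11. Its last codon is codon 207 of 509, the glutamine codon that the active transgene changes to aspartate. That of Acvrl1 lies at chr15:101136155-101136205 on the plus strand, also within a single exon. In Bmpr1a (chr14:34425115-34429682, minus strand), Bmpr1b (chr3:141857573-141863009, minus strand), Acvr1b (chr15:101195045-101198821, plus strand) and Tgfbr1 (chr4:47393477-47396392, plus strand), the stretch is spliced from 2 exons, and the positions span the intron. The 4 BMP type I receptors end in a glutamine codon, and Acvr1b and Tgfbr1 in a threonine codon. Between pairs of the 6 stretches, 26 to 40 of the 51 bases were identical, with the most between Acvr1 and Acvrl1 and the fewest between Acvrl1 and Tgfbr1.

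The receptors could be told apart in sequence over their whole transcripts. The longest run of bases shared by transcripts of different receptors was 22 bases, between Acvr1b and Tgfbr2, and 0 windows of 50 bases were shared between receptors. Exons of Acvrl1, Bmpr1a and Acvr2a overlapped exons of another gene on the opposite strand over 127, 290 and 446 bases (Gm16031, Gm17110 and Orc4). The counting is not stated to use strand, so fragments there cannot be assigned with certainty. For Acvr1, 0 windows of 50 bases occurred in another gene. The deposited counts list Acvr1 once, and transgene and endogenous fragments cannot be told apart in them.

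The libraries held between 32218345 and 55728852 counts. Counts were scaled to counts per 1000000 counts (CPM) after TMM normalization in edgeR, which corrects for library size and composition. All 10 endothelial and all 8 interstitial and fibroblast markers were detected, as was every one of 9 cardiac muscle markers and 6 smooth muscle markers. The summed endothelial markers ran from 1936.8 to 2911.5 CPM in the controls and from 2150.0 to 2592.8 CPM in the mutants. The summed cardiac muscle markers ran from 12226.5 to 37580.6 CPM in the controls and from 18125.3 to 39798.8 CPM in the mutants. Control replicate 2 stood apart in these lists. It held the least cardiac muscle signal and the most smooth muscle signal, at 13423.6 CPM where control replicates 1 and 3 held no more than 6080.9 CPM. It had the highest level of 5 of the 10 receptors, and of 24.4% of the 15354 genes tested. Fewer cells of a type and less RNA per cell cannot be told apart in such bulk samples.

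Acvr1 (chromosome 2, 58388644 to 58567157) encodes AcvRI, also called Alk2, the receptor activated in the mutants. It was read at 49.1, 60.5 and 67.4 CPM in control replicates 1, 2 and 3, and at 56.5, 57.9 and 49.9 CPM in mutant replicates 1, 2 and 3. The 3 mutants lay within the range of the controls. On the log2 scale the mutants differed from the controls by -0.11 (standard error, SE, 0.14, 95% interval -0.43 to 0.22, adjusted p = 0.999 from edgeR). On the linear scale the interval runs from 0.74 to 1.16 times the control level. The Acvr1 count thus did not separate the labelled genotypes.

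Acvrl1 (chromosome 15, 101128522 to 101145336) encodes Alk1, a type I receptor best known in endothelial cells, where it responds to BMP9 and BMP10. It was read at 79.0, 90.8 and 54.6 CPM in the controls and 62.3, 58.1 and 76.3 CPM in the mutants. The mutants lay between the lowest and the highest control. Its log2 fold change was -0.19 (SE 0.20, adjusted p = 0.999 from edgeR), and -0.02 without control replicate 2. Its neighbour on the chromosome is Acvr1b, which starts 28.7 kb downstream.

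Bmpr1a (chromosome 14, 34410734 to 34503341) encodes Alk3, a broadly expressed BMP receptor that is needed for cushion formation. The controls were read at 129, 199 and 140.0 CPM and the mutants at 149.6, 174 and 141 CPM. The controls spanned a wider range than the mutants and enclosed them. Mutants and controls differed by a log2 fold change of -0.0098 (SE 0.18, 95% interval -0.44 to 0.42), and 0.21 without control replicate 2.

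Bmpr1b (chromosome 3, 141837136 to 142169425) encodes Alk6, a BMP receptor with known roles in cartilage. It was read at 3.27, 14.0 and 4.89 CPM in the controls and 2.05, 5.29 and 3.30 CPM in the mutants. Control replicate 2 lay above every other library, with 710 counts against 105 to 225, and the remaining 2 controls lay within the range of the mutants. Its log2 fold change of -1.06 (SE 0.60, 95% interval -2.49 to 0.36, adjusted p = 0.999 from edgeR) was the furthest from 0 among the 10 receptors, and it became -0.20 without control replicate 2.

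**Figure D1:**
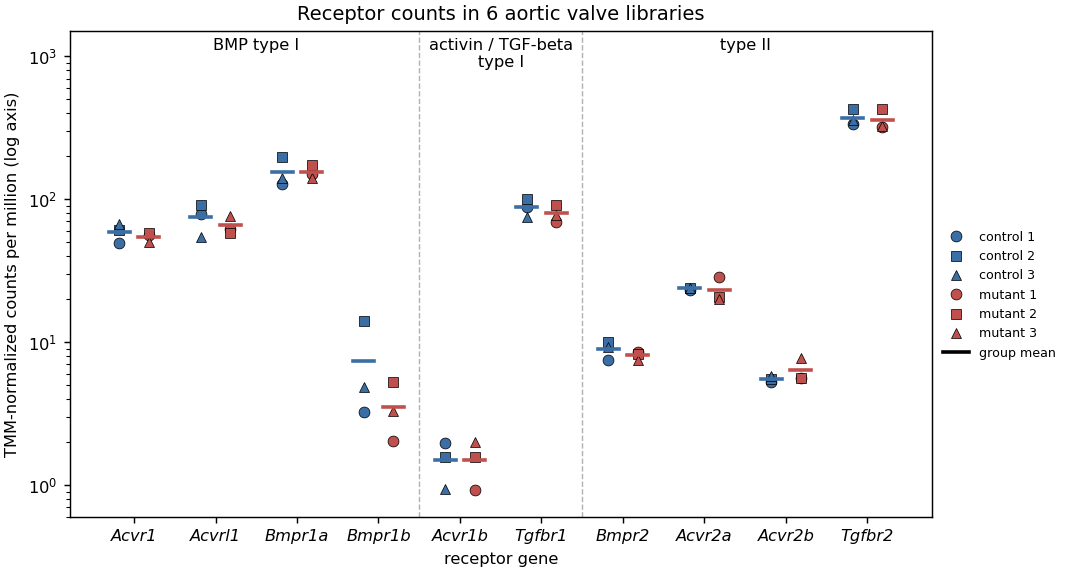
Each point is the TMM-normalized level of a receptor gene in 1 of the 6 libraries, in CPM on a log axis, with controls in blue, mutants in red and a bar at each group mean (n = 3). The groups overlap in all 10 genes, and control 2 lies above the other libraries for Bmpr1b.

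Of the type I receptors that act through Smad2 and Smad3, Tgfbr1 (chromosome 4, 47353222 to 47414931) encodes Alk5, the type I receptor for TGF-beta. Its controls were read at 88.2, 100.4 and 75.1 CPM and its mutants at 69.4, 91.7 and 77.5 CPM. A single mutant lay below the lowest control, and the log2 fold change was -0.14 (SE 0.15). Acvr1b (chromosome 15, 101174067 to 101213684) encodes Alk4, the type I receptor for activin. Acvr1b was read at 1.96, 1.58 and 0.935 CPM in the controls and 0.927, 1.57 and 2.01 CPM in the mutants, from 43 to 105 counts per library. Both groups covered almost the same range. Its log2 fold change of 0.0017 had an SE of 0.44 and a 95% interval of -1.05 to 1.05, which is 0.482 to 2.08 times the control level.

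Among the type II receptors, Tgfbr2 (chromosome 9, 116084293 to 116175360) encodes the TGF-beta type II receptor. The controls were read at 335, 427 and 358 CPM and the mutants at 321, 428 and 328 CPM. These groups overlapped, with replicate 2 the highest library of each. For Tgfbr2 the log2 fold change was -0.06 (SE 0.17). Bmpr2 (chromosome 1, 59763400 to 59879014), which encodes the BMP type II receptor, was read at 7.501, 10.01 and 9.18 CPM in the controls and 8.48, 8.30 and 7.47 CPM in the mutants. A single mutant lay just under the lowest control, and the log2 fold change was -0.14 (SE 0.17, 95% interval -0.55 to 0.27).

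Acvr2a and Acvr2b encode type II receptors that bind activins and also serve BMP complexes. Acvr2a (chromosome 2, 48814109 to 48903269) was read at 23.2, 24.1 and 24.1 CPM in the controls and 28.7, 20.5 and 19.9 CPM in the mutants. The controls were closely grouped, and the mutants lay on both sides of them. Control values of Acvr2a had a coefficient of variation of 2.22%, against 2.9% from counting alone, whereas that of its mutants was 21.3%. Acvr2b (chromosome 9, 119402118 to 119434995) was read at 5.24, 5.52 and 5.83 CPM in the controls and 5.62, 5.62 and 7.79 CPM in the mutants. Mutant replicate 3 alone lay above the controls. The log2 fold changes were -0.04 (SE 0.16) for Acvr2a and 0.20 (SE 0.21) for Acvr2b, and the latter was 0.02 without mutant replicate 3.

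In the comparison of mutants with controls, 0 of the 10 receptors had an adjusted p under 0.05 in edgeR, where 0.0% of the 15354 genes tested passed that threshold. At an unadjusted p under 0.05 the count was also 0 of 10, against 3.45% of all genes, and the smallest unadjusted p was 0.121, for Bmpr1b. DESeq2 called 0 of 10 at an adjusted p under 0.05 (0.169% of all genes) and 0 of 10 at an unadjusted one (4.45%). The limma-voom fit also called 0 of 10 by either measure (0.0% and 3.45% of all genes). In 0 of 10 receptors did the groups separate completely, against 8.87% of all genes. The log2 fold change was below 0 in 8 of 10 receptors, against 47.8% of all genes, but Bmpr1a was so close to 0 that upper-quartile scaling turned it to 0.00047. Without control replicate 2, mutant replicate 1 or mutant replicate 3 the count below 0 was 6 of 10. It was 9 of 10 in DESeq2, without a filter on low counts and without control replicate 3. The median log2 fold change of the receptors was -0.08, and that of all genes tested was 0.01. Without control replicate 1 the receptor median was -0.14, and without control replicate 2 it was -0.03. With all libraries, the median size of the log2 fold changes without regard to direction was 0.12 for the receptors and 0.14 for all genes. The median coefficient of variation among the controls was 15.0% for the receptors and 14.9% for all genes tested.

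**Figure D2:**
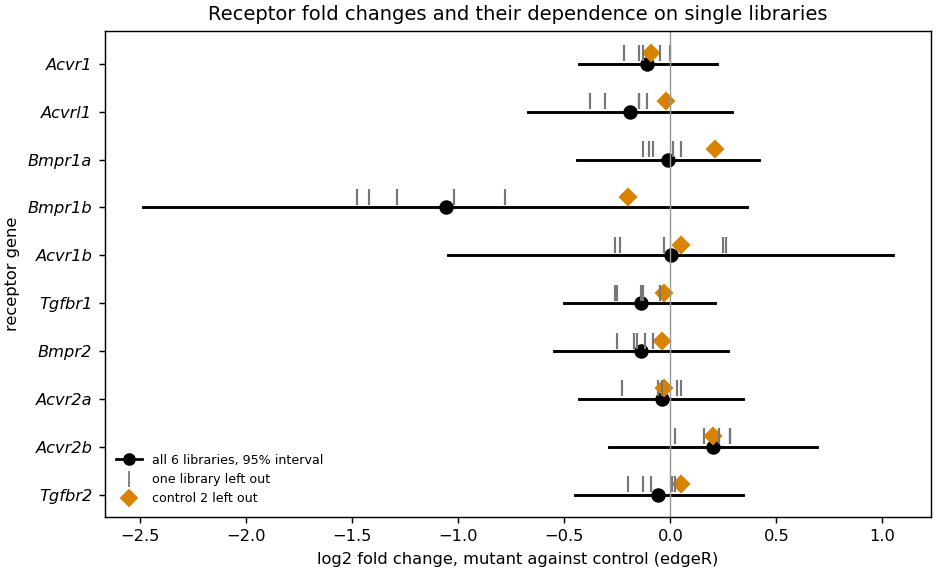
Black points and lines give the log2 fold change of each receptor gene, mutants against controls, with its 95% interval from edgeR (3 controls, 3 mutants), and the marks above each line give the fits that each left out a library. All 10 intervals include 0, and the fit without control 2 (diamond) moves Bmpr1b from -1.06 to -0.20.

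To compare the receptors with each other, CPM were divided by the merged exon length of each gene in kilobases, which gives fragments per kilobase scaled to library size as CPM are (FPKM). On this scale Tgfbr2 had the highest level, at 45.6 ± 5.85 FPKM (SD, n = 3) in the controls, above 91.7% of the genes tested that had a length. Bmpr1a followed at 24.5 ± 5.91 FPKM (SD, n = 3), Acvrl1 at 17.5 ± 4.33, Tgfbr1 at 13.5 ± 1.94 and Acvr1 at 12.2 ± 1.91. Acvr2a was at 4.18 ± 0.0928 FPKM (SD, n = 3), Acvr2b at 1.41 ± 0.0744 and Bmpr1b at 1.24 ± 0.974. The lowest were Bmpr2 at 0.495 ± 0.071 FPKM and Acvr1b at 0.338 ± 0.117 FPKM (SD, n = 3). Acvr1b lay above only 11.7% of the genes tested, and Acvr1 above 71.2%. The median gene tested was at 4.75 FPKM.

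Several neighbours in this order were not separated. Tgfbr2 was 1.67 to 2.02 times as high as Bmpr1a, in 6 of 6 libraries, and Acvr1 was 2.32 to 3.32 times as high as Acvr2a, also in 6 of 6. Acvrl1, Tgfbr1 and Acvr1 could not be placed in a firm order. Acvrl1 was at 0.97 to 1.51 times the level of Tgfbr1, and Tgfbr1 at 0.824 to 1.33 times that of Acvr1. With the longest coding sequence as the length, Tgfbr1 instead lay above Acvrl1 in all 6 libraries. Bmpr1b, at 0.343 to 2.36 FPKM, overlapped both Acvr2b (1.33 to 1.98 FPKM) and Bmpr2 (0.415 to 0.556 FPKM), whereas the ranges of Acvr2b and Bmpr2 were apart. Bmpr2 exceeded Acvr1b in 4 of 6 libraries per merged exon length, and in 6 of 6 per coding length or longest transcript. Bmpr2 held the same low place under each length tried. It ranked 9 of 10 with merged exons of 17983 bases, with its longest transcript of 12899 bases (0.69 FPKM) and with its coding sequence of 3114 bases (2.86 FPKM). These lengths change the divisor only. They cannot show whether the counts of Bmpr2 (238 to 506 per library) and Acvr1b (43 to 105) are complete. The gene models behind the deposited counts are not given in the sources used here.

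The make-up of the 2 receptor types was then compared between libraries as shares of the summed level per length. Of the 6 type I receptors, Bmpr1a made up 31.96% to 40.1%, Acvrl1 19.96% to 29.2%, Tgfbr1 17.4% to 21.3% and Acvr1 15.1% to 22.7%. Bmpr1b stayed at or under 2.83% and Acvr1b at or under 0.719%. The share of Acvr1 was 17.9% ± 4.19 (SD, n = 3) in the controls and 17.7% ± 1.43 (SD, n = 3) in the mutants. Of the 4 type II receptors, Tgfbr2 made up 84.95% to 90.5%, Acvr2a 6.25% to 10.9%, Acvr2b 2.41% to 4.32% and Bmpr2 0.799% to 1.02%. Control and mutant shares overlapped for each of the 10 genes. These are shares of RNA, not of protein, and they rest on counts whose completeness was not tested. With coding length in place of exon length, Bmpr1a made up 35.5% to 43.4% of the type I level and had the largest share of the 6 in every library. With the longest transcript as the length, Acvrl1 (29.1%) and Bmpr1a (29.0%) were level in control replicate 1.

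**Figure D3:**
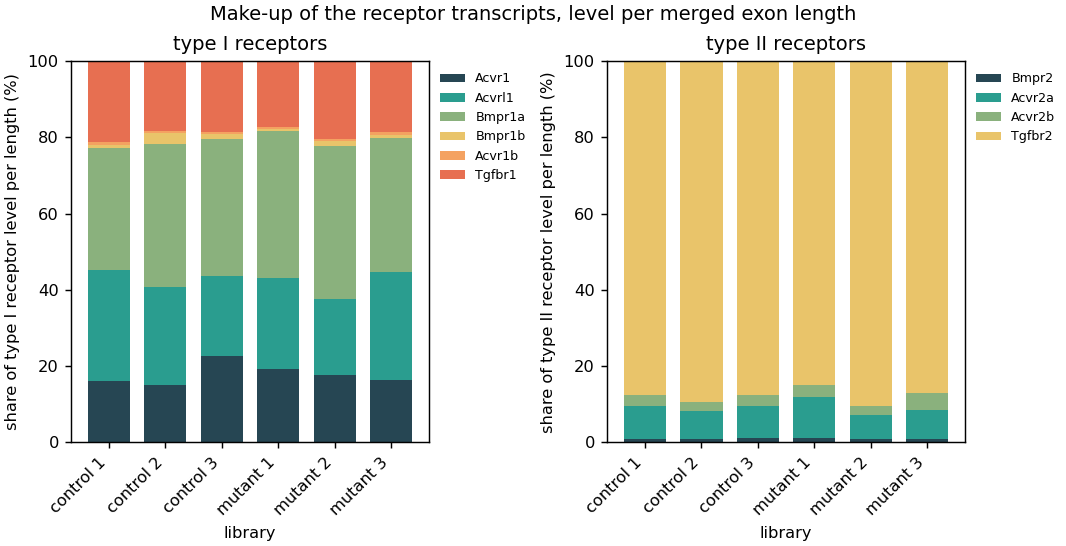
Stacked bars give, for each of the 6 libraries, the share in percent of every type I receptor (left) and type II receptor (right) in the summed level per merged exon length. Bmpr1a is the tallest type I share in every library, at 31.96% to 40.1%, and Tgfbr2 makes up 84.95% to 90.5% of the type II level.

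Genes whose pattern over the 6 libraries was most like that of a receptor were found by the root mean square difference of centred log2 CPM. Among 13693 genes, the nearest to Acvr1 were Fbf1, Rnf113a2 and Aste1, at differences of 0.0394, 0.0459 and 0.0488, where Acvr1 itself varied by 0.156 around its mean. Nearest to Acvrl1 were Cebpa, Mfhas1 and Slc26a11 (0.0569, 0.0625 and 0.0771), and nearest to Bmpr2 were Phf21a, 2610002M06Rik and Map4k3 (0.0288, 0.0348 and 0.0359). For Bmpr1b, which was added to this search after its values were seen, the nearest were Acan, Smpd3 and Ptprz1, at 0.145, 0.152 and 0.159, where Bmpr1b itself varied by 0.785. Acan encodes Aggrecan, the large proteoglycan of cartilage. Acan was read at 4.70, 20.8 and 6.48 CPM in the controls and 3.53, 6.30 and 5.24 CPM in the mutants. Acan, Smpd3 and Ptprz1 were chosen for their likeness to Bmpr1b, so sharing its highest and lowest library is no separate finding. All 4 genes were highest in control replicate 2 and lowest in mutant replicate 1. Of the genes tested, 0.873% lay at least as far above the next control in that library as Bmpr1b, which was 2.7 times as high once 0.5 CPM was added to both values. Whether the tissue content of this library has a part in these values was not tested.

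**Figure D4:**
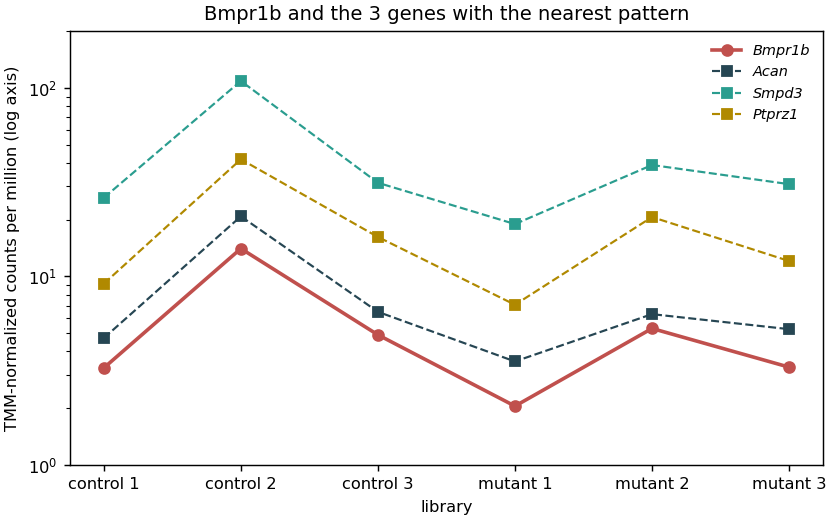
Lines join the levels of Bmpr1b (solid) and of Acan, Smpd3 and Ptprz1 (dashed) over the 6 libraries, in TMM-normalized CPM on a log axis. All 4 genes peak in control 2, where Bmpr1b reached 14.0 CPM and Acan 20.8 CPM. The dashed genes were chosen for their likeness to Bmpr1b over these same libraries.

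The 2 receptors that complete the family were also low. Acvr1c, which encodes the nodal and activin receptor Alk7, was counted 39 to 213 times in a control and 23 to 56 times in a mutant. Its highest library was again control replicate 2. Its log2 fold change of -0.92 (SE 0.77) became 0.28 without that library and -1.5 without mutant replicate 3. Amhr2, the type II receptor for anti-Müllerian hormone, was read at 1.03 ± 0.485 CPM in the controls and 0.624 ± 0.242 CPM in the mutants (SD, n = 3). Control replicate 2 was its highest library, at 1.58 CPM, and its log2 fold change of -0.71 (SE 0.51) was -0.25 without it.

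Other members of the pathway were taken from lists of co-receptors, Smads, inhibitors, adaptors and ligands. Of 52 genes, Acvr1c and Amhr2 included, 48 could be tested and 0 had an adjusted p under 0.05 in edgeR, with 8 at an unadjusted p under 0.05, where 0.0% and 3.45% of all genes passed. DESeq2 called 0 of the 48 at an adjusted p under 0.05 (0.169% of all genes) and 10 at an unadjusted one (4.45%). With limma-voom the counts were 0 (0.0% of all genes) and 5 (3.45%). In 4 of them every mutant lay above every control and in 5 below, against 4.04% and 4.83% of all genes.

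The co-receptors present ligand to the receptor complex. Eng, which encodes the endothelial co-receptor Endoglin, was read at 798 ± 94.4 CPM in the controls and 916 ± 142 CPM in the mutants (SD, n = 3), with overlapping groups. A log2 fold change of 0.20 (SE 0.19) for Eng was 0.10 without control replicate 1 and 0.32 without mutant replicate 3. Tgfbr3 encodes betaglycan, which presents TGF-beta to its receptors. It was read at 116, 142 and 115 CPM in the controls and 102, 93.1 and 107 CPM in the mutants. Every mutant of Tgfbr3 lay below every control, with a log2 fold change of -0.30 (SE 0.12, adjusted p = 0.999 from edgeR) that was -0.19 without control replicate 2. Rgma, Rgmb and Hfe2, which encode co-receptors of the repulsive guidance molecule family for BMPs, had log2 fold changes of 0.19, 0.04 and 0.13, each with overlapping groups. Without control replicate 3 that of Rgma was 0.08, and without mutant replicate 1 that of Rgmb was 0.01. Hfe2, a gene known to be active in muscle, was lowest in control replicate 2, at 43.0 CPM against 92.1 to 168 CPM elsewhere. Its change was -0.27 without that library and 0.48 without control replicate 3. Tdgf1 had 1 count in all libraries together and Cfc1 had 0 counts. By counting error alone, 0 counts allow up to 0.0931 CPM, here without TMM scaling, in the library with the lowest total.

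Of the 6 Smads that carry the signal of the receptors to the nucleus, 3 had all mutants below all controls, which held for 4.83% of all genes tested. Smad1, a BMP Smad phosphorylated by AcvRI, was read at 96.9, 117 and 104 CPM in the controls and 72.1, 88.6 and 76.4 CPM in the mutants. These groups did not overlap. The log2 fold change of Smad1 was -0.43 (SE 0.12, unadjusted p = 0.00961, adjusted p = 0.999 from edgeR), and its range was -0.52 to -0.34 when any single library was dropped. Smad3, a Smad of the TGF-beta and activin branch, was read at 42.1 ± 1.78 CPM in the controls and 33.7 ± 6.59 CPM in the mutants (SD, n = 3). Its log2 fold change was -0.32 (SE 0.16), and -0.17 without mutant replicate 3. Smad4, the common partner of both branches, had a log2 fold change of -0.22 (SE 0.12), and -0.11 without control replicate 2. The summed smooth muscle markers were between 5901.9 and 13423.6 CPM in the controls and between 2230.7 and 6010.6 CPM in the mutants, with 6 of 6 markers below 0 in log2 fold change. These log2 fold changes ran from -1.12 (Myh11) to -0.77 (Acta2), and from -0.56 to -0.20 for the same genes without control replicate 2. Of the 6, edgeR and DESeq2 called 0 at an adjusted p under 0.05 (0.0% and 0.169% of all genes). They called 1 and 5 at an unadjusted one (3.45% and 4.45%), and 3 of the 6 had all mutants below all controls (4.83%). The summed macrophage markers were between 1270.8 and 1410.5 CPM in the controls and between 1674.6 and 1824.4 CPM in the mutants, with 7 of 7 measured markers above 0 in log2 fold change. Of these 7, edgeR called 0 and DESeq2 1 at an adjusted p under 0.05 (0.0% and 0.169% of all genes). Each called 4 at an unadjusted p under 0.05 (3.45% and 4.45%), and 4 had all mutants above all controls (4.04%). All 5 adipocyte markers were below 0 in log2 fold change (median -0.43), and all 5 melanocyte markers were above 0 (median 0.57). In 0 of either list did the groups separate, against 8.87% of all genes. The part of any of these cell types in these Smads, or in the other pathway genes whose groups separated, was not tested.

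Among 8 adaptors and kinases that work with the receptors, 2 had all mutants above all controls, which held for 4.04% of all genes tested. Limk1 encodes a kinase that binds the tail of the BMP type II receptor and acts on the actin cytoskeleton. It was read at 4.55, 7.46 and 7.39 CPM in the controls and 10.3, 17.2 and 20.5 CPM in the mutants. The lowest mutant lay above the highest control, and the log2 fold change of 1.30 (SE 0.31) had an adjusted p of 0.999 in edgeR and 0.0514 in DESeq2. Without each library in turn it stayed between 1.09 and 1.54. Zfyve9 encodes SARA, which holds Smad2 and Smad3 near the TGF-beta receptors, and had a log2 fold change of 0.48 (SE 0.22).

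Of the 10 pathway inhibitors, which include Smad6, Smad7 and Bambi, 0 separated the groups completely, against 8.87% of all genes, a share at which 0 of so few genes is no result about them. Their log2 fold changes ran from -0.33 to 0.42 with a median of 0.01. The highest was that of Smad6, an inhibitory Smad that BMP signaling is known to induce, and it is given here, like Bmp6 and Gdf6 after it, after its values were seen. Smad6 was read at 258.5, 293.2 and 218.4 CPM in the controls and 365.8, 382.7 and 282.7 CPM in the mutants. A pair of mutants lay above every control and mutant replicate 3 lay among them, with a log2 fold change of 0.42 (SE 0.17, 95% interval 0.02 to 0.83, unadjusted p = 0.0434 and adjusted p = 0.999 from edgeR).

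Of the 17 ligands tested, Inhbb, Inha and Tgfb3 separated the groups, as did 8.87% of all genes in either direction. Inhbb, which encodes the beta B chain of activins and inhibins, was read at 49.95, 45.2 and 52.95 CPM in the controls and 56.5, 111 and 80.0 CPM in the mutants. Its log2 fold change of 0.74 (SE 0.23, adjusted p = 0.999 from edgeR) was 0.47 without mutant replicate 2. Inha, for the inhibin alpha chain, had a log2 fold change of 0.47 (SE 0.25). Tgfb3, for the ligand TGF-beta 3, was read at 289 ± 59.3 CPM in the controls and 209 ± 34.9 CPM in the mutants (SD, n = 3), and its log2 fold change of -0.47 (SE 0.19) was -0.30 without control replicate 2. The groups overlapped for Bmp6 and Gdf6, which encode BMP family ligands and had unadjusted p-values of 0.0225 and 0.0267 in edgeR (adjusted p = 0.999 for both). Bmp6 was read at 89.57, 217.1 and 148.4 CPM in the controls and 90.92, 85.77 and 57.42 CPM in the mutants. The resulting log2 fold change of -0.96 (SE 0.33) was -0.60 without control replicate 2. Gdf6 was read at 1.57, 14.6 and 2.65 CPM in the controls and 1.58, 1.19 and 0.754 CPM in the mutants. Its highest library was control replicate 2, and its log2 fold change of -2.4 (SE 0.86) was -0.83 without it.

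Promoters of 9 of the 10 receptors, from 250 bases before to 50 bases after the start in RefSeq (GRCm38.p6), were searched for GGCGCC, a GC-rich sequence that BMP Smads are known to bind and that reads the same on both strands. It occurred in Bmpr1a, Acvr1b, Tgfbr1 and Bmpr2, which is 44.4% of the 9, against 13.4% of all genes with a promoter entry. The receptor promoters were also richer in G and C, with a median of 74.7% against 53.3%. The 27025 genes compared were not limited to the 15354 tested, and G and C content was not matched. These matches describe letters only.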

How the data were processed

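Aortic valve RNA in 3 control and 3 mutant libraries was sequenced by the authors (TruSeq, Illumina HiSeq). According to the submitters' processing notes, reads were aligned to mm10 with TopHat2 2.0.13 and Bowtie2 2.2.1 and quantified with Cufflinks and Cuffdiff 2.1.1. The values as deposited by the authors are estimated counts per gene, not scaled for library size, and they were rounded to whole numbers here (1.66% to 1.87% per library were not whole). Columns were matched to samples by the sample descriptions. The annotation release is not given in the sources used here.

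The 15354 genes that reached 10 counts in 3 or more libraries were tested in R 4.3.3 by quasi-likelihood in edgeR 4.0.16 (TMM, two-sided, no covariates), with Benjamini-Hochberg adjustment over all genes. Each standard error (SE) is the log2 fold change divided by the square root of F. Alternatives were DESeq2 1.42.0, limma 3.58.1 (voom, with and without sample quality weights), upper-quartile scaling, other filters, the replicate number as a block, and leaving out each library. The pipeline was tested on simulated data. Positions, lengths and coding sequences came from GENCODE vM21, in which all 10 receptors and 90.2% of the genes tested were found by symbol. The members and lists were chosen with earlier results of these data known. All 10 receptors are named, with Acvr1c, Amhr2, the co-receptors, and up to 3 genes with the smallest p per pathway list among those whose groups did not overlap. The genes nearest in pattern were sought at a mean of at least 1 CPM, with 0.5 CPM added before the logarithm. Counting limits use 3 counts, and they and the Cfc1 limit cover counting error only. With 3 libraries against 3, an exact permutation test cannot give a two-sided p under 0.1, so none is given.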

Additional observations from a re-analysis of the deposited data

How the results depend on the processing

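Of the alternatives, DESeq2 alone moved the count of genes with an adjusted p under 0.05, from 0 to 26 (21 higher and 5 lower in the mutants). The counts of receptors and of other pathway genes called stayed at 0 in every alternative, and the smallest adjusted p of a receptor was 0.901. The number of receptors whose groups do not overlap, 0 with all libraries, ran from 0 to 2 when a library was left out, where 2 libraries face 3. The share of all genes at 2 against 3 is not given here, and the 8.87% above is for 3 against 3. The counts of 0 to 2 are therefore no result about the receptors in particular. The log2 fold change of Bmpr1a turned positive with upper-quartile scaling (0.00047), the replicate block (0.01), limma-voom (0.009) and limma-voom with quality weights (0.11). That of Acvr1b turned negative without a filter on low counts (-0.00098), with the replicate block (-0.0033), in DESeq2 (-0.0019) and in limma-voom (-0.08). Acvr1b has no value at a mean count of at least 100. Leaving out a library gave log2 fold changes from -0.22 to -0.0042 for Acvr1, -0.38 to -0.02 for Acvrl1, -0.13 to 0.21 for Bmpr1a, -1.48 to -0.20 for Bmpr1b, -0.26 to 0.26 for Acvr1b, -0.26 to -0.03 for Tgfbr1, -0.25 to -0.04 for Bmpr2, -0.23 to 0.05 for Acvr2a, 0.02 to 0.28 for Acvr2b and -0.20 to 0.05 for Tgfbr2. Samples with the same replicate number share only that number: their deviations from the group means correlated at 0.289, 0.0822 and 0.0313 over 15354 genes, 4 of 6 samples correlated best with their own number, and with the replicate block 0 genes were called. The causes of these shifts were not tested.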
